A study of Mus musculus with 6 samples.

Results

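The genes described here are 9 genes of mature B cells that encode surface proteins and parts of the B cell receptor: Ms4a1, Cr2, Fcer2a, Cd22, Cd79a, Cd79b, Fcmr, Ighd and Ighm. They were taken by name from a table of 49315 mouse genes, and all 9 had enough counts to be tested. The table holds poly(A)-selected RNA of mouse bone marrow from animals fed a diet that the labels call HFSC and subjected to hindlimb ischemia, a block of blood flow to a hind leg. The WT group has 3 libraries (replicates 1, 3 and 4) of the strain miR-181a2b2flox/flox, in which the locus of 2 microRNAs is flanked by recombination sites and no recombinase is named. The KO group has 3 libraries (replicates 2, 3 and 4) of the strain miR-181a2b2-/-, which lacks that locus. Diet and ischemia were common to both groups, so no library without them enters the comparison. Age, sex and the way the deletion was made are not given in the labels used here. Whether each library had its own animal is also not stated, so p-values cover only the spread between these samples, which may be technical.

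B cells are made in the marrow. A precursor first assembles a heavy chain gene, whose first product is the mu chain encoded by Ighm, and then a light chain gene. The finished immunoglobulin reaches the surface together with the CD79A and CD79B proteins, which carry the signal into the cell. A newly made B cell carries IgM alone. As it matures it also makes IgD by alternative processing of the same heavy chain transcript. It also comes to carry more CD20, CD21, CD23, CD22 and IgM Fc receptor. Mature B cells recirculate through blood, spleen, lymph nodes and marrow, whereas antibody-secreting plasma cells lose most of these surface proteins and go on making immunoglobulin.

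Total counts lay between 33861440 and 40359093 per library, and a count of 0 is compatible with up to 3 counts, or 0.0743 to 0.0886 CPM depending on the library. CPM is a gene's count scaled to a common library total, with the TMM factors of edgeR applied to all values but these limits. The deleted Mir181a-2 and Mir181b-2 had 0 counts in all 6 libraries, WT included, so the table cannot check the genotype. Marrow genes were abundant, with 10 neutrophil markers summing to between 43202 and 78705 CPM and 9 erythroid markers to between 13260 and 32391 CPM. The extraction text in the labels names white adipose tissue, and 10 adipocyte markers summed to between 56.3 and 84.6 CPM. Of these, Lipe lay between 30.8 and 42.9 CPM and Fabp4 between 13.2 and 33.8 CPM. Adipoq lay between 2.70 and 6.62 CPM, and Plin1, Lep, Cidec and Adrb3 each stayed at or below 0.289 CPM. Of 6 lymph node stroma markers, Ccl21a and Glycam1 were at 0 in every library and all 6 together stayed at or below 1.04 CPM. Xist, a noncoding RNA made from the inactive X chromosome, lay between 3.43 and 6.68 CPM in WT replicates 3 and 4 and KO replicate 2 and between 0.0800 and 0.223 CPM in the other 3, a division the labels do not describe.

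The 5p arms of the mature microRNAs of the deleted locus are shown because the KO group lacks them there. The 3p arms, miR-181a-2-3p and miR-181b-2-3p, are not shown and their matches were not searched. Whether the marrow made the 5p sequences from other loci was not measured. The capitals mark the seed, bases 2 to 8, which pairs with target messages (RefSeq, GRCm38.p6, plus strand of chromosome 2). The locus lies at chr2:38852741-38852763 for miR-181a-5p and chr2:38853845-38853868 for miR-181b-5p.
mmu-miR-181a-5p: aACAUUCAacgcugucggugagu
mmu-miR-181b-5p: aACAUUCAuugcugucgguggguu
The 5p arms share one seed, ACAUUCA, whose match in a message is TGAATGT. In the longest annotated 3′ UTR of each of the 9 genes (GENCODE M21), the match occurred once in Cd22 and once in Ms4a1 and was not found in the other 7. The sites, with the match in capitals, are the following.
Cd22: ccctgtcatccTGAATGTccactacgcccc
Ms4a1: tgtaatttagtTGAATGTaagaagcaagcc
The Ms4a1 site is followed by an A and thus forms an 8mer, TGAATGTA. Over 13748 tested genes with an annotated 3′ UTR, 18.9% held the 7-base match and 6.11% the 8mer, so 2 of 9 genes is a share near that of all genes. A match is a description of letters and not a measured binding site.

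Levels were first set side by side per exon length, as CPM per kilobase, which allows genes of different length to be compared. The heavy chain gene Ighm (ENSMUSG00000076617, chr12:113418558-113422730, GRCm38) stood far above the rest at 308 ± 28.5 CPM per kilobase in WT (SD, n = 3). It held between 71.2% and 84.9% of the summed CPM of the 9 genes. The signalling chains followed, Cd79a (ENSMUSG00000003379, chr7:24897381-24902197) at 38.5 ± 8.68 CPM per kilobase and Cd79b (ENSMUSG00000040592, chr11:106311341-106314762) at 32.1 ± 6.24 CPM per kilobase in WT. Their ranges over libraries overlapped, while within a library Cd79a was above Cd79b in all but KO replicate 4. Ighd (ENSMUSG00000104213, chr12:113406604-113416324) came next at 13.9 ± 6.94 CPM per kilobase, with no WT library reaching the lowest Cd79b value. Fcmr, Cd22, Ms4a1 and Fcer2a lay between 5.96 and 2.97 CPM per kilobase on average, and the range of each overlapped those of its neighbours in this order. Within each of the 6 libraries Fcmr was nonetheless above Cd22, and Cd22 above Ms4a1. Cr2 was lowest at 0.674 ± 0.243 CPM per kilobase, and its highest WT value of 0.915 stayed below the lowest of Fcer2a, 1.42. In KO the steps from Ighm to Cd79a, from Cd79b to Ighd and from Fcer2a to Cr2 were again separate, and so was the step from Ighd to Fcmr.

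**Figure D1:**
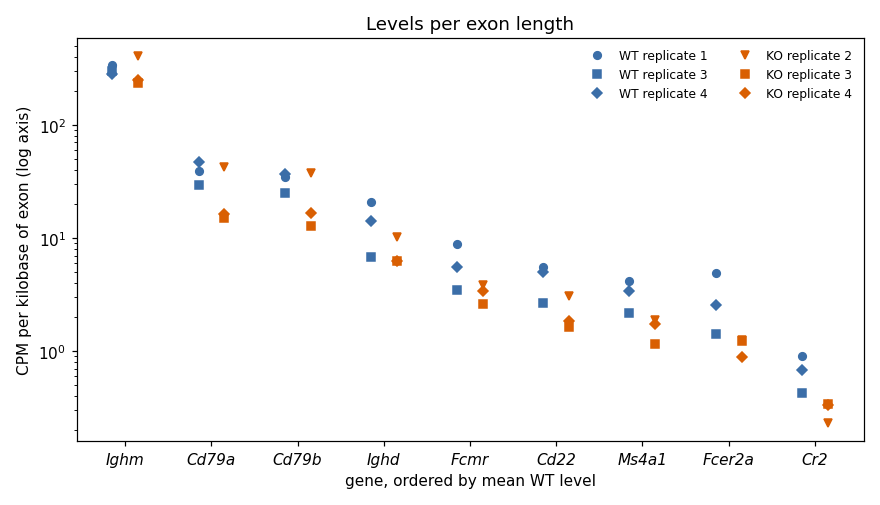
CPM per kilobase of exon on a log axis for the 9 genes, ordered by their mean WT level, with 1 point per library (blue WT, orange KO, marker shape by replicate). Ighm lies above every other gene in each library, with a lowest value of 234 CPM per kilobase, and Cr2 lies below every other gene.

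The receptor itself is taken first. Ighm, which encodes the mu heavy chain of both membrane and secreted IgM, lay at 641, 566 and 537 CPM in WT replicates 1, 3 and 4 and at 764, 441 and 473 CPM in KO replicates 2, 3 and 4. KO replicate 2 was above every WT library and the other KO libraries below every one, so the group means were close and the KO spread wide. The log2 fold change (KO minus WT) was -0.06 ± 0.20 (SE, 3 against 3 libraries, edgeR quasi-likelihood test, Benjamini-Hochberg adjusted p = 0.894), with a 95% interval from -0.52 to 0.41. Its sign turned with WT replicate 1 left out (0.02), with KO replicate 3 left out (0.10) and with KO replicate 4 left out (0.06). The counts are per gene and do not separate the membrane from the secreted form.

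Ighd, which encodes the delta heavy chain of mature naive B cells, had 39.3, 12.9 and 26.8 CPM in WT replicates 1, 3 and 4. In KO replicates 2, 3 and 4 it had 19.4, 12.04 and 11.97 CPM. WT replicate 3 was close to the low KO libraries and below KO replicate 2, and the groups overlapped. The difference of -0.86 ± 0.45 on the log2 scale did not pass over all genes (edgeR quasi-likelihood adjusted p = 0.305). It was -0.46 without WT replicate 1.

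Cd79a, the alpha signalling chain, gave 56.8, 43.1 and 68.4 CPM in WT replicates 1, 3 and 4 and 62.3, 21.9 and 24.0 CPM in KO replicates 2, 3 and 4. Cd79b, its partner chain, gave 49.5, 35.8 and 52.5 CPM in WT and 54.0, 18.4 and 24.0 CPM in KO in the same order. In both genes KO replicates 3 and 4 lay below all WT libraries, while KO replicate 2 lay among or above them. Neither passed the test, at -0.64 ± 0.48 for Cd79a (edgeR adjusted p = 0.481) and -0.52 ± 0.45 for Cd79b (edgeR adjusted p = 0.543). Without KO replicate 2 both passed, at -1.29 (edgeR adjusted p = 0.0133) and -1.11 (edgeR adjusted p = 0.0230), so this library decided the calls of the receptor's signalling chains. They were -0.37 and -0.23 without KO replicate 3. Of all genes, 2.11% were called lower without KO replicate 2 and 3.46% without KO replicate 3.

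**Figure D2:**
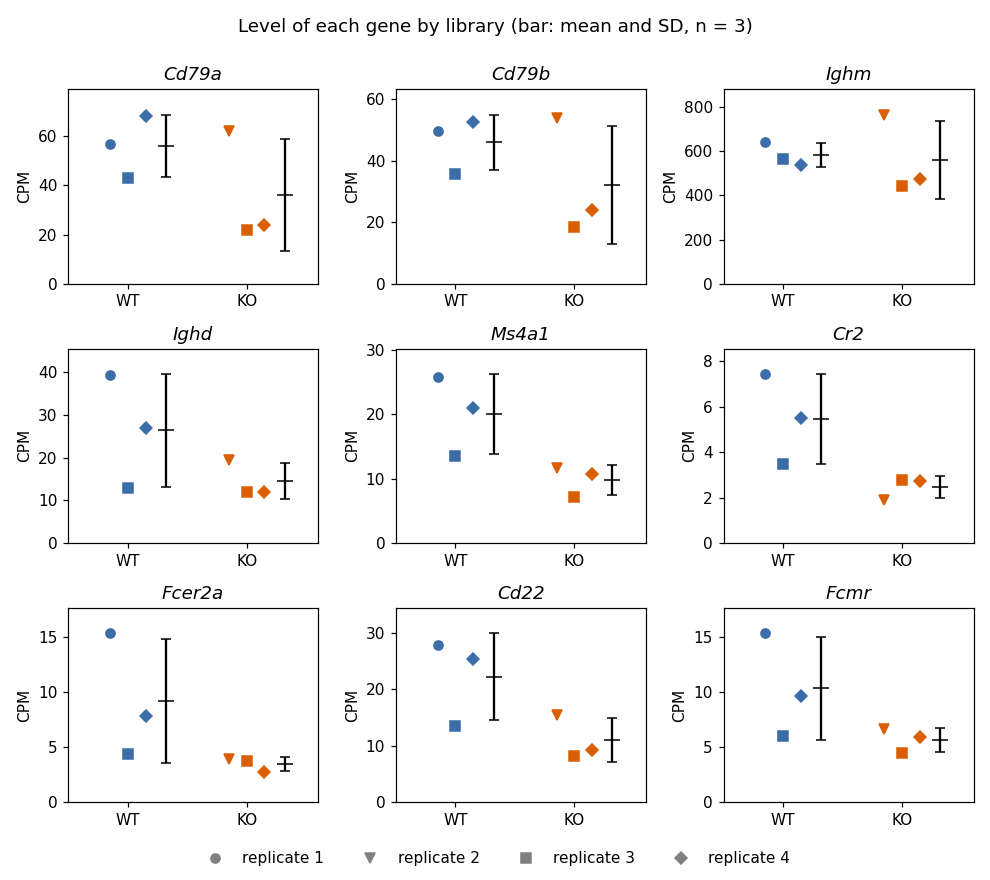
CPM of each of the 9 genes in each library, with WT in blue, KO in orange, marker shape by replicate number, and the black bar at the right of each group giving the mean and SD (n = 3). Cr2, Fcer2a and Ms4a1 show no overlap between groups, while KO replicate 2 reaches 62.3 CPM for Cd79a and 764 CPM for Ighm.

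Groups did not overlap and KO was lower in 3 of the 9 genes, Ms4a1, Cr2 and Fcer2a, against 14.7% of all genes tested. The groups of Cd22, Fcmr and Ighd, which are also gained on maturation, did overlap. Ms4a1 (ENSMUSG00000024673, chr19:11249675-11266241) encodes CD20, a B cell surface protein that antibodies against B cell disease target. It had 25.8, 13.5 and 20.95 CPM in WT replicates 1, 3 and 4 and 11.6, 7.15 and 10.7 CPM in KO replicates 2, 3 and 4. All KO libraries were below all WT libraries, with WT replicate 3 nearest to them. The log2 fold change was -1.03 ± 0.27, a level 2.04-fold lower, which did not pass over all genes (edgeR adjusted p = 0.0826).

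Cr2 (ENSMUSG00000026616, chr1:195136811-195176716) encodes the complement receptor CD21, which binds complement-tagged antigen and lowers the threshold of B cell activation. Its counts were the smallest of the set, between 64 and 257 per library. They corresponded to 7.42, 3.48 and 5.51 CPM in WT replicates 1, 3 and 4 and to 1.90, 2.79 and 2.72 CPM in KO replicates 2, 3 and 4. KO replicate 2, which was highest of the KO libraries for each of the other 8 genes, was the lowest of all 6 for Cr2. The log2 fold change of -1.14 ± 0.29 had a 95% interval from -1.78 to -0.50 and missed the threshold (edgeR adjusted p = 0.0666).

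Fcer2a (ENSMUSG00000005540, chr8:3681737-3694175) encodes CD23, the low-affinity IgE receptor of follicular B cells. Its levels were 15.3, 4.39 and 7.87 CPM in WT replicates 1, 3 and 4 and 3.92, 3.77 and 2.75 CPM in KO replicates 2, 3 and 4. The KO libraries were close together and WT replicate 1 stood high, while WT replicate 3 was only just above KO replicate 2. A log2 fold change of -1.40 ± 0.44 was the largest in size among the 9 genes, a level 2.64-fold lower, and did not pass (edgeR adjusted p = 0.123). It was -0.82 without WT replicate 1.

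The last pair are receptors that temper or tune B cell activation. Cd22 (ENSMUSG00000030577, chr7:30865402-30880342), a sialic acid-binding inhibitor of receptor signalling, had 27.9, 13.4 and 25.3 CPM in WT replicates 1, 3 and 4 and 15.4, 8.18 and 9.31 CPM in KO replicates 2, 3 and 4. KO replicate 2 exceeded WT replicate 3, so the groups overlapped, and the difference was -1.02 ± 0.35 (edgeR adjusted p = 0.146). An antisense gene, Gm29439, shares 479 exon bases with Cd22 and had 14 counts in all against 3734 for Cd22. Fcmr (ENSMUSG00000042474, chr1:130865669-130880791), the Fc receptor for IgM, had 15.3, 6.03 and 9.65 CPM in WT replicates 1, 3 and 4 and 6.62, 4.50 and 5.92 CPM in KO replicates 2, 3 and 4. Again KO replicate 2 lay above WT replicate 3, and the log2 fold change of -0.86 ± 0.32 did not pass (edgeR adjusted p = 0.161). It was -0.47 without WT replicate 1.

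Across the set, 0 of the 9 genes passed in edgeR in either direction, where 1.52% of the 16956 genes tested were called lower and 0.938% higher. The split of calls over all genes was 258 lower and 159 higher, or 403 and 87 with library totals as the only scaling. At an unadjusted p under 0.05, 5 of the 9 were lower (Cr2, Ms4a1, Fcer2a, Cd22 and Fcmr) against 12.2% of all genes, and 0 were higher, against 11.7%. The same 5 were called lower by DESeq2, with adjusted p values between 0.00114 for Ms4a1 and 0.0326 for Fcmr. Of the 13007 genes to which DESeq2 gave an adjusted p, 6.03% were called lower and 6.59% higher. limma called 0 of the 9, with the smallest adjusted p of 0.0555 for Cr2, and 3.31% of all genes lower and 2.92% higher. Groups did not overlap and KO was lower in 3 of 9, against 14.7% of all genes tested, and KO was higher without overlap in 0 of 9, against 14.4%. All 9 log2 fold changes were negative, as were 51.1% over all genes, and their median was -0.86 beside -0.01 for all genes. In a bulk sample, fewer B cells and less RNA of these genes per B cell cannot be told apart.

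Single libraries moved these values. Without WT replicate 3, Ms4a1 (edgeR adjusted p = 0.0456), Cr2 (edgeR adjusted p = 0.0472) and Fcer2a (edgeR adjusted p = 0.0456) passed, when 0.834% of all genes were called lower. With WT replicate 1, WT replicate 4, KO replicate 3 or KO replicate 4 left out, 0 of the 9 passed, and of all genes 0.156%, 0.14%, 3.46% and 0.134% were called lower. WT replicate 3 was the lowest WT library for 8 of the 9 genes, Ighm being the exception, and KO replicate 2 exceeded it for 6. Within the 3 libraries with Xist above 1 CPM (WT replicates 3 and 4 and KO replicate 2), the difference in mean log2 CPM ran from -1.21 for Cr2 to 0.47 for Ighm and was negative for 5 of the 9. Within the other 3 (WT replicate 1 and KO replicates 3 and 4) it ran from -2.25 for Fcer2a to -0.49 for Ighm and was negative for all 9. Each of these has a group of 1 library and allows no test. With Xist-containing libraries as a covariate Cr2 passed (edgeR adjusted p = 0.0430), and 0.784% of all genes were called lower.

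**Figure D3:**
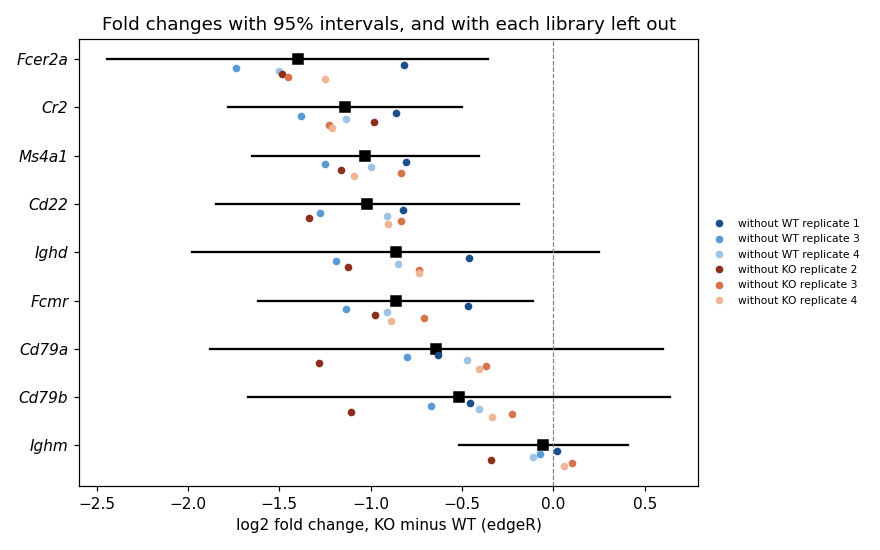
Log2 fold changes (KO minus WT) of the 9 genes with their 95% intervals in black, and below each the values with 1 library left out (coloured points). Intervals of 5 genes exclude 0, Cd79a and Cd79b move furthest left without KO replicate 2, and Ighm lies on both sides of 0.

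To compare the genes within the B lineage, log2 ratios of CPM were formed in each library. Ighd to Ighm, which sets the delta against the mu chain, was -4.03, -5.45 and -4.32 in WT replicates 1, 3 and 4 and -5.30, -5.20 and -5.30 in KO replicates 2, 3 and 4. The KO libraries agreed closely, and WT replicate 3 lay below all of them. The difference of means was -0.67 (exact permutation test, two-sided, p = 0.4, Benjamini-Hochberg 0.96 over 6 ratios, where 3 against 3 libraries cannot go below 0.1). Relative to Cd79a, Cr2 was at -5.03 in KO replicate 2 and between -3.64 and -2.94 in the other 5 libraries. Ms4a1 relative to Cd79a was likewise lowest in KO replicate 2, at -2.42, and between -1.71 and -1.14 elsewhere. KO replicate 2 was also lowest for Fcer2a (-3.99), Fcmr (-3.23) and Cd22 (-2.02) relative to Cd79a. The KO minus WT differences were -0.31 for Cr2, -0.45 for Fcer2a, -0.22 for Ms4a1, 0.01 for Fcmr and -0.22 for Cd22 (exact permutation p between 0.5 and 1). KO replicates 3 and 4 thus had these genes and Cd79a low together, whereas KO replicate 2 had a WT-like Cd79a level and the lowest of all 5 ratios to it.

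The 9 genes were also compared with each other in pairs. Over the 6 libraries their 36 pairs had a median Pearson correlation of log2 CPM of 0.787, and 0.686 for deviations from the group means, where all points share libraries. The closest pair was Cd79a and Cd79b at 0.987, the chains of one heterodimer. Ms4a1 and Cd22 followed at 0.957. The most distant pair was Cr2 and Ighm at -0.0026, and Cr2 with Cd79a gave 0.414. Deviations from the group means were negatively correlated for Cr2 with Ighm (-0.28), Cd79a (-0.20) and Cd79b (-0.16), and positively in the other 33 pairs.

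Promoter sequences were available for 5 of the 9 genes and are shown for 4. They came from RefSeq (GRCm38.p6), with 7 windows from 250 bases before to 50 after a start. The windows were searched on both strands for 3 motifs: the octamer ATTTGCAT read by Oct factors, the palindrome CCCNNGGG of EBF factors and the E-box CAGGTG read by E proteins. Capitals mark matches, and the printed part is upstream of the start and outside annotated exons. Only stretches with a match there are printed. The Fcmr match lies after the start, at position 37, and the other windows of Fcer2a held none. The Cr2 stretch is chr1:195176720-195176969 and the Fcer2a stretch, at an internal start, is chr8:3690862-3691111, both on the minus strand. The Cd79a stretch is chr7:24897247-24897380 on the plus strand and the Cd22 stretch chr7:30879029-30879176 on the minus strand.
Cr2: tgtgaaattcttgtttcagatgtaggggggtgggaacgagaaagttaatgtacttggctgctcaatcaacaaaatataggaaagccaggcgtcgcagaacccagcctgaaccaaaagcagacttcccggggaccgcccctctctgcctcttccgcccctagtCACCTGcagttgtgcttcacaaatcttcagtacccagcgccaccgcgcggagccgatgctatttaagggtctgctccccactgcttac
Fcer2a: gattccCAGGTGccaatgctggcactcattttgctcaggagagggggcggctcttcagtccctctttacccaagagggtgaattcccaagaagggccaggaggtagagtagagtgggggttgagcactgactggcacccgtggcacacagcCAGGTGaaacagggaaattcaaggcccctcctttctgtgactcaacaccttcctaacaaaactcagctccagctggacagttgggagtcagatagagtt
Cd79a: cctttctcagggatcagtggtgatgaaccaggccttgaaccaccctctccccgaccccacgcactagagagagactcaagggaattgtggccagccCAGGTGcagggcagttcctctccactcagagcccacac
Cd22: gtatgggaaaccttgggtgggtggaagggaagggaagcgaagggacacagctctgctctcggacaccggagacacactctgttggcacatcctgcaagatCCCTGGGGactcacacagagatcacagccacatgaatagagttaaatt
The E-box was found in 5 of the 7 windows, those of Cr2, Cd79a, Cd22 and Fcmr and 1 of 3 of Fcer2a, and in 20.2% of 32851 windows of all genes. The matches began at position -88 relative to the start in Cr2, -154 in Cd79a, and -244 and -99 in Fcer2a. That of Cd22, at position -245, lies in an annotated exon and outside the printed stretch. The EBF palindrome was in the Cd22 window alone among the 7, against 13.7% of all windows, and the octamer in 0 of 7, against 1.74%. These are matches of letters and say nothing of which factor bound there.

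The other genes of the receptor pathway did not move in a common direction. Of 21 receptor signalling genes, 0 passed in edgeR, while with unadjusted p under 0.05 there were 5 lower and 3 higher, and the median log2 fold change was -0.08. In DESeq2 2 were called lower and 3 higher, and in limma 2 higher. Bcl10, an adaptor that links antigen receptors to NF-kB, had 0.40 ± 0.09 (edgeR adjusted p = 0.0505), with all KO libraries above all WT libraries. Lyn, a kinase that starts receptor signalling and is also made in myeloid cells, had 0.39 ± 0.10 (edgeR adjusted p = 0.0626).

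Of 11 genes that restrain the receptor, 0 passed in edgeR, 1 was lower and 3 higher at an unadjusted p under 0.05, DESeq2 called 1 higher and limma 0. Dok3, an adaptor of inhibitory signals, had a log2 fold change of 0.43, Fcgr2b, the inhibitory IgG receptor, 0.27 and Cd5, an inhibitory surface protein of B-1 and T cells, -0.55. Their median was 0.03, with 4 of the 11 values negative. Cd72, an inhibitory receptor of B cells named after its values were seen, had 33.0, 28.7 and 40.1 CPM in WT replicates 1, 3 and 4 and 39.5, 10.9 and 13.4 CPM in KO replicates 2, 3 and 4, so that KO replicate 2 alone lay among the WT libraries (edgeR adjusted p = 0.513).

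Other surface and homing genes of mature B cells, 24 in all, gave 0 calls in edgeR (8 lower and 3 higher before adjustment at 0.05) and a median of -0.31, or -0.14 without WT replicate 1. In DESeq2 6 were called lower and 2 higher, in limma 1 each way, and in edgeR 5 lower without KO replicate 2. Ltb, a lymphotoxin subunit, had 0.48 ± 0.11 (edgeR adjusted p = 0.0519). Cd40, the receptor for T cell help, had -0.68 ± 0.18 (edgeR adjusted p = 0.0729), and Cd55, a brake on complement, had -0.37 ± 0.10 (edgeR adjusted p = 0.0789).

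Transcription regulators of the lineage and precursor genes were set beside the 9 genes, since both describe B cells that are not yet mature or are common to all stages. Of 10 regulators 0 passed in edgeR (3 lower before adjustment at 0.05), all 10 had negative values and the median was -0.70. DESeq2 called 3 lower and limma 2. Ciita, the master regulator of MHC class II genes, had -1.02 ± 0.23 (edgeR adjusted p = 0.0555), Bcl11a, a lymphoid regulator, -0.42 ± 0.10 (edgeR adjusted p = 0.0615) and Foxo1, needed for heavy chain and receptor gene rearrangement, -0.63 ± 0.19 (edgeR adjusted p = 0.102). Of 14 precursor genes 0 passed in edgeR (3 lower before adjustment at 0.05), all 14 had negative values, the median was -0.51, and DESeq2 and limma called 2 each. Cd93, a surface protein of immature B cells that other marrow cells also carry, had -0.44, Arpp21 -0.83 and Tcf3, which encodes E proteins, -0.39. The summed precursor level was 534, 531 and 692 CPM in WT replicates 1, 3 and 4 and 565, 340 and 311 CPM in KO replicates 2, 3 and 4. By this sum, the KO library near the WT level was replicate 2, the one with WT-like Cd79a and Cd79b. For Cd93, Arpp21 and Cecr2, KO replicate 2 was nonetheless below every WT library. These were the 3 of 14 genes whose groups did not overlap, against 14.7% of all genes tested that were lower without overlap. Among the 10 regulators, 5 were lower without overlap. Without KO replicate 2, edgeR called 9 of the 14 precursor genes and 6 of the 10 regulators lower, and their medians were -1.11 and -1.15. The precursor median was between -0.29 and -0.27 with WT replicate 4, KO replicate 3 or KO replicate 4 left out.

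Among immunoglobulin light chain and plasma cell genes, 1 of 4 and 1 of 12 rose. Igkc, the kappa light chain constant gene, rose from 574 ± 71.0 CPM in WT to 1007 ± 92.9 CPM in KO (SD, n = 3 each), a log2 fold change of 0.81 ± 0.12 (edgeR adjusted p = 0.0215). Its KO libraries, at 900, 1048 and 1072 CPM in replicates 2, 3 and 4, were all above the WT libraries. The call was lost when WT replicate 1, WT replicate 4 or KO replicate 4 was left out (edgeR adjusted p = 0.0745, 0.0830 and 0.0799). In those fits 6, 13 and 9 of all genes were called higher, and the Igkc log2 fold change was 0.73, 0.80 and 0.77. The other 3 light chain genes did not pass, with 0.42 for Iglc3, 0.32 for Iglc1 and 0.01 for Iglc2, and the median of the 4 was 0.37. Of the 12 plasma cell genes 0 fell and the median was 0.26, while DESeq2 called 3 and limma 1 higher. The gene that rose was Xbp1, a transcription factor of secretory cells, from 146 ± 3.50 to 214 ± 29.8 CPM (edgeR adjusted p = 0.0427). It lost its call without WT replicate 1, 3 or 4 or KO replicate 4 (edgeR adjusted p = 0.117, 0.0734, 0.143 and 0.137). Its log2 fold changes in those fits were 0.56, 0.56, 0.53 and 0.44. Without WT replicate 3, 56 of all genes were called higher. Jchain, which joins IgM into pentamers in secreting cells, had 0.90 ± 0.24 (edgeR adjusted p = 0.0892), and Ell2, an elongation factor that favours the secreted heavy chain form, had -0.28. Other genes that define plasma cells, picked out after their values were seen, had 0.02 (Sdc1), 0.04 (Mzb1), 0.08 (Prdm1), 0.27 (Tnfrsf17) and -0.99 (Irf4), and none of these passed. The summed plasma cell level was between 535 and 646 CPM in WT and between 763 and 887 CPM in KO without overlap, and most of it came from Jchain (189 CPM in WT and 352 CPM in KO on average) and Xbp1. Plasma cells also make Ighm, and their part in its level was not tested.

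**Figure D4:**
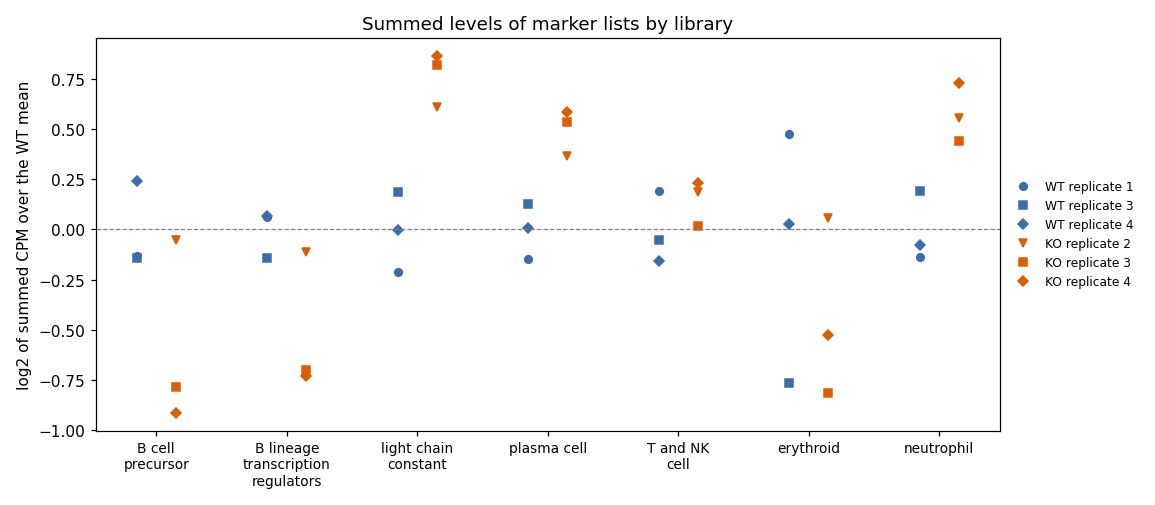
Summed CPM of 7 marker lists in each library, as log2 over the WT mean of that list (dashed line at 0), with WT in blue and KO in orange and marker shape by replicate. Light chain, plasma cell and neutrophil sums are higher in all 3 KO libraries, and precursor sums are low in KO replicates 3 and 4 with KO replicate 2 near the WT libraries.

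Markers of other marrow cells also differed between the libraries. Of 10 neutrophil genes 3 rose and 0 fell in edgeR, 10 were higher in DESeq2 and 7 in limma, and the median was 0.54. Those that rose were Elane, a primary granule protease, Camp, an antimicrobial peptide, and S100a8, a calcium-binding protein, with log2 fold changes of 0.58, 0.73 and 0.75 (edgeR adjusted p = 0.0350, 0.0400 and 0.0435). All 3 calls were lost when WT replicate 1, WT replicate 4 or KO replicate 4 was left out. In those fits 6, 13 and 9 of all genes were called higher, and the 3 log2 fold changes lay between 0.50 and 0.73. The calls of Elane and Camp were also lost without WT replicate 3, and that of Camp without KO replicate 2. The summed neutrophil level was between 43202 and 54228 CPM in WT and between 64315 and 78705 CPM in KO, without overlap. Erythroid genes gave 0 calls in edgeR (2 lower before adjustment at 0.05), DESeq2 called 2 lower and limma 1, and the median was -0.37 over 9 genes, or -0.08 without WT replicate 1 and -0.66 without WT replicate 3. Their sum was 32391, 13691 and 23763 CPM in WT replicates 1, 3 and 4 and 24260, 13260 and 16193 CPM in KO replicates 2, 3 and 4, so WT replicate 3 was low and KO replicate 2 high here too. Slc4a1, the red cell anion exchanger, had a log2 fold change of -0.64, and Epb42, a red cell membrane skeleton protein, had -0.51.

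T and NK cell genes, the other lymphocytes of the marrow, gave 0 calls in edgeR over 17 genes (1 lower and 1 higher before adjustment at 0.05), 1 higher gene each in DESeq2 and limma, and a median of -0.11, or 0.07 without WT replicate 1. Nkg7, a cytotoxic granule protein, had 0.45, Prf1, which encodes perforin, -0.43 and Cd28, a T cell co-stimulator, -0.34. Their sums overlapped, with 156 to 198 CPM in WT and 176 to 204 CPM in KO. Adipocyte genes gave 0 calls in edgeR, DESeq2 or limma over 6 tested, 2 higher at an unadjusted p under 0.05, and sums of 56.3 to 64.1 CPM in WT and 68.1 to 84.6 CPM in KO, with Adipoq at 0.59, Retn at 0.59 and Fabp4 at 0.54. Of the lymph node stroma genes only Pdpn had enough counts to be tested (0.17, edgeR adjusted p = 0.821), and it was not called before adjustment or by DESeq2 or limma. The part of these other cell types in the levels of the 9 genes was not tested.

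The genes most like the set were sought by the Pearson correlation of log2 CPM with the mean standardised level of the 9 genes over the 6 libraries, among 11135 genes whose mean log2 CPM was 1 or more. That mean level was 1.23, -0.19 and 0.71 SD units in WT replicates 1, 3 and 4 and 0.12, -1.06 and -0.81 in KO replicates 2, 3 and 4. The 5 closest were March3, a ubiquitin ligase, Mboat2, a lipid acyltransferase, Ppp3cc, a calcineurin catalytic subunit, H2-Ob, the beta chain of the B cell MHC class II modulator H2-O, and Pbx4, a homeobox gene, with correlations between 0.994 and 0.998. These correlations rest on 6 points that share libraries and groups, and 403 of the candidates were above 0.9. H2-Ob had 30.4, 13.9 and 24.3 CPM in WT replicates 1, 3 and 4, 16.7, 9.89 and 10.7 CPM in KO replicates 2, 3 and 4, and a log2 fold change of -0.88 (edgeR adjusted p = 0.172).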

How the data were processed

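The authors deposited raw counts per gene for 6 poly(A) RNA libraries. The submitters' processing notes name STAR 2.5.2b, Trimmomatic 0.36, featureCounts, Subread 1.5.2 and the build GRCm38. Settings, annotation release, strand and the handling of multiply mapped reads are not stated there, so overlapping and antisense genes cannot be told apart. Identifiers were matched to GENCODE M21 (48970 of 49315 had a symbol). Counts were tested in edgeR 4.0.16 (R 4.3.3) with TMM, filterByExpr and a robust two-sided quasi-likelihood test, Benjamini-Hochberg threshold 0.05. The procedure was tested on simulated data. DESeq2 1.42.0 and limma 3.58.1, other scalings and filters, a replicate block, an Xist covariate and each library left out were alternatives. Gene lists of receptor signalling, receptor inhibition, other B cell surface, regulator, precursor, light chain, plasma, T and NK, lymph node stroma, adipocyte, erythroid and neutrophil genes gave up to 3 named genes each by smallest p, of which some are not reported here. The 5 genes most like the set followed a fixed rule. The genes and lists were chosen with earlier results of these data known, and the search for microRNA sites was added after the table was seen. Protein sequences were not used here. Ratios and standardised levels used CPM, the latter after adding 0.5. Total counts were 34000323 (WT replicate 1), 40034773 (WT replicate 3), 40359093 (WT replicate 4), 33861440 (KO replicate 2), 36394812 (KO replicate 3) and 39566582 (KO replicate 4). The limit of 3 counts covers counting error only.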

Additional observations from a re-analysis of the deposited data

How the results depend on the processing

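The 9 genes called lower, 0 in edgeR as described, numbered 1 with no filter on low counts (Cr2), 5 with DESeq2 and 1 with the Xist covariate (Cr2), and between 0 and 3 with each library left out. With the replicate number as a block they numbered 4 (Cd22, Cd79a, Cd79b and Ms4a1), where 2.12% of all genes were called lower. Only numbers 3 and 4 occur in both groups, so WT replicate 1 and KO replicate 2 did not inform the difference in this fit. The calls with the block thus rest on replicates 3 and 4 of each group. The labels do not say what the numbers mark. Deviations from group means correlated at 0.274 for number 3 and -0.234 for number 4. With 1 library per group at each number, these values cannot decide whether libraries of the same number share anything else. None of the 9 was called higher under any of the 15 alternatives. Over all genes, calls were 258 lower and 159 higher, against 403 and 87 with library totals only, 839 and 653 with no filter, 784 and 857 with DESeq2, 562 and 495 with limma, and 133 and 76 with the Xist covariate. With each library left out they lay between 23 and 604 lower and between 6 and 316 higher. The median log2 fold change of the 9 genes lay between -1.19 and -0.63 with each library left out. That of Ighm lay between -0.34 and 0.10 and changed sign as given above. Of the log2 ratios to Cd79a, those of Cr2 (-0.69 to 0.35), Ms4a1 (-0.51 to 0.12) and Fcmr (-0.24 to 0.37) changed sign, Cr2 and Ms4a1 without KO replicate 2 (0.35 and 0.12), and Fcmr without WT replicate 3 (-0.15), WT replicate 4 (-0.15), KO replicate 3 (-0.11) or KO replicate 4 (-0.24). The differences in the other ratios kept their sign and lay between -0.79 and -0.0093 for Fcer2a to Cd79a, between -0.37 and -0.0097 for Cd22 to Cd79a and between -1.09 and -0.38 for Ighd to Ighm. The causes were not tested. Depth limits Cr2 most, with 64 counts in KO replicate 2.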
